A study of Mus musculus with 12 samples.

Results

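The transcripts described here are 8 genes used as markers of dentate gyrus granule neurons, namely Prox1, C1ql2, Calb1, Dsp, Tdo2, Plk5, Trpc6 and Lct. They were chosen by name as known markers, with earlier results of these data known. All 8 were found among the 23352 gene entries measured in mouse hippocampus. Poly-A selected RNA was profiled in 12 hippocampus libraries on the C57BL/6J strain, in 4 groups of 3. The groups were N40K transgenic mice of line Tg396 at 3 months, wild-type littermates without the transgene at that age, N40K transgenic mice at 12 months and wild-type littermates at 12 months. N40K is a shortened U1-70K, a protein of the spliceosome encoded by Snrnp70, and it was driven in neurons by a modified CaMKIIa promoter. Because a single transgenic line was used, an effect of N40K and an effect of that line's insertion cannot be told apart.

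Granule neurons are the principal cells of the dentate gyrus. They receive input from the entorhinal cortex and send their axons, the mossy fibres, to area CA3, and in rodents new ones are added in adult life. Prox1 encodes a homeobox transcription factor that sets and keeps granule neuron identity. C1ql2 encodes a secreted C1q-like protein found at mossy fibre synapses, and Calb1 encodes calbindin, a calcium buffer that fills mature granule neurons. Dsp encodes desmoplakin, which ties cell junctions to intermediate filaments. Tdo2 encodes tryptophan dioxygenase, the enzyme of the first step of the kynurenine route of tryptophan breakdown, and Lct encodes lactase, best known from the gut. Plk5 is a brain-enriched member of the polo-like kinase family, and Trpc6 encodes a cation channel. Several of these transcripts are not unique to granule neurons, since Prox1 also occurs in some interneurons and in cells of the oligodendrocyte lineage, and Calb1 in some CA1 pyramidal cells and interneurons.

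Upstream sequences are shown for Tdo2, Plk5 and Prox1, the 3 genes with the clearest differences below. Each runs from 250 bases before to 50 bases after the transcript start, 5′ to 3′ on the gene's strand, and comes from RefSeq on GRCm38.p6. The windows are chr3:81975679-81975978 on the minus strand for Tdo2, chr10:80356209-80356508 on the plus strand for Plk5 and chr1:190170778-190171077 on the minus strand for the first of 2 listed Prox1 starts. Capitals mark the E-box CAGATG, a motif bound by NeuroD-type factors.
Tdo2: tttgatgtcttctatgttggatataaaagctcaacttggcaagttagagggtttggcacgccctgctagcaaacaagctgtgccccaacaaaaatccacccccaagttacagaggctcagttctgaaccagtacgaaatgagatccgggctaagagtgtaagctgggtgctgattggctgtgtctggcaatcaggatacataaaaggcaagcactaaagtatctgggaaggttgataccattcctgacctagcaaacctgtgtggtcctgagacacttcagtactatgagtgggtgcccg
Plk5: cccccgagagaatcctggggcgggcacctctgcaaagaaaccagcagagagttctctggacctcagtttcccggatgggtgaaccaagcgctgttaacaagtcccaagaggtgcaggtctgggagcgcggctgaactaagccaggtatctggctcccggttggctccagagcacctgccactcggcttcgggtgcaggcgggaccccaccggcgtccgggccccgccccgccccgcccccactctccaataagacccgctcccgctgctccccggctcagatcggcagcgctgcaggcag
Prox1: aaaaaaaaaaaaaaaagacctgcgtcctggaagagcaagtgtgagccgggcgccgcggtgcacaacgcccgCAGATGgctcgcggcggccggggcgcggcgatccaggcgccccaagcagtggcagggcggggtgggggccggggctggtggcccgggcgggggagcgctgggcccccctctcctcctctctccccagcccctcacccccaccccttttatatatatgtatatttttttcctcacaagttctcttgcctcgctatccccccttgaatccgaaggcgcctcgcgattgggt
Such windows were matched for 7 of the 8 genes, with 8 starts. On both strands CAGATG was found in 1 of the 8 windows, against 17.2% of 32851 windows in the genome. The E-box CAGCTG, held by 16.3% of all windows, and the cyclic AMP response element TGACGTCA, held by 1.8%, were found in 0 of the 8. The windows differed in base composition, with 47.7% G and C for Tdo2, 66.7% for Plk5 and 64.3% for Prox1.

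Values are FPKM, fragment counts scaled by transcript length and library depth, as the authors deposited them. Sums of FPKM ran from 309358 to 350760 per library, and the depth estimated from low values from 40.2 to 97.7 M reads. The sums were 343393 to 350760 at 3 months. At 12 months they were lower, at 309358 to 318387 in N40K and 319131 to 332941 in wild type. All 8 genes stood above 1 FPKM in all 12 libraries. At that depth the lowest value of any of them rested on about 609 reads, a counting error of 4.05%. Snrnp70 stood at 399.0, 401.0 and 377.3 FPKM in N40K libraries and at 179.0, 160.8 and 179.1 FPKM in wild-type libraries at 3 months. At 12 months it stood at 304.7, 320.0 and 258.6 FPKM in N40K and at 137.9, 96.0 and 133.3 FPKM in wild type, so the libraries match their labels. Xist reads, a sign of female RNA, were found in replicate 3 of the N40K and replicates 2 and 3 of the wild-type group at 3 months, and in no other library above 0.112 FPKM. As all libraries with Xist reads were of 3 months, sex is not balanced between the ages, nor is it between the genotypes at 3 months. The library numbers of the ages come from separate series, so age and any difference in handling cannot be told apart. In bulk RNA, fewer granule neurons and less RNA per granule neuron cannot be told apart either.

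Calb1 and C1ql2 were the most abundant of the 8 per length. Calb1 averaged 38.6 ± 2.55 FPKM in N40K and 35.1 ± 1.09 FPKM in wild type at 3 months (SD, n = 3 each), and C1ql2 34.9 ± 6.40 and 31.2 ± 3.70 FPKM. In N40K hippocampus of 3 months these 2 overlapped, with Calb1 higher in 2 of the 3 libraries, whereas in the other 3 groups Calb1 stood above C1ql2 without overlap. Plk5 came next in 3 groups, at 13.7 ± 2.36 FPKM in N40K and 18.8 ± 3.37 FPKM in wild type at 3 months and 11.4 ± 3.21 FPKM in wild type at 12 months (SD, n = 3 each). In 12-month N40K hippocampus Plk5 ranked 5 of 8, at 6.60 ± 0.15 FPKM, where its values overlapped those of both its neighbours in that order, Trpc6 and Dsp. The remaining 5 genes lay at group means of 4.38 to 11.4 FPKM, and their neighbours in the order overlapped except Trpc6 above Prox1 in young wild type and Prox1 above Trpc6 in 12-month N40K.

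**Figure D1:**
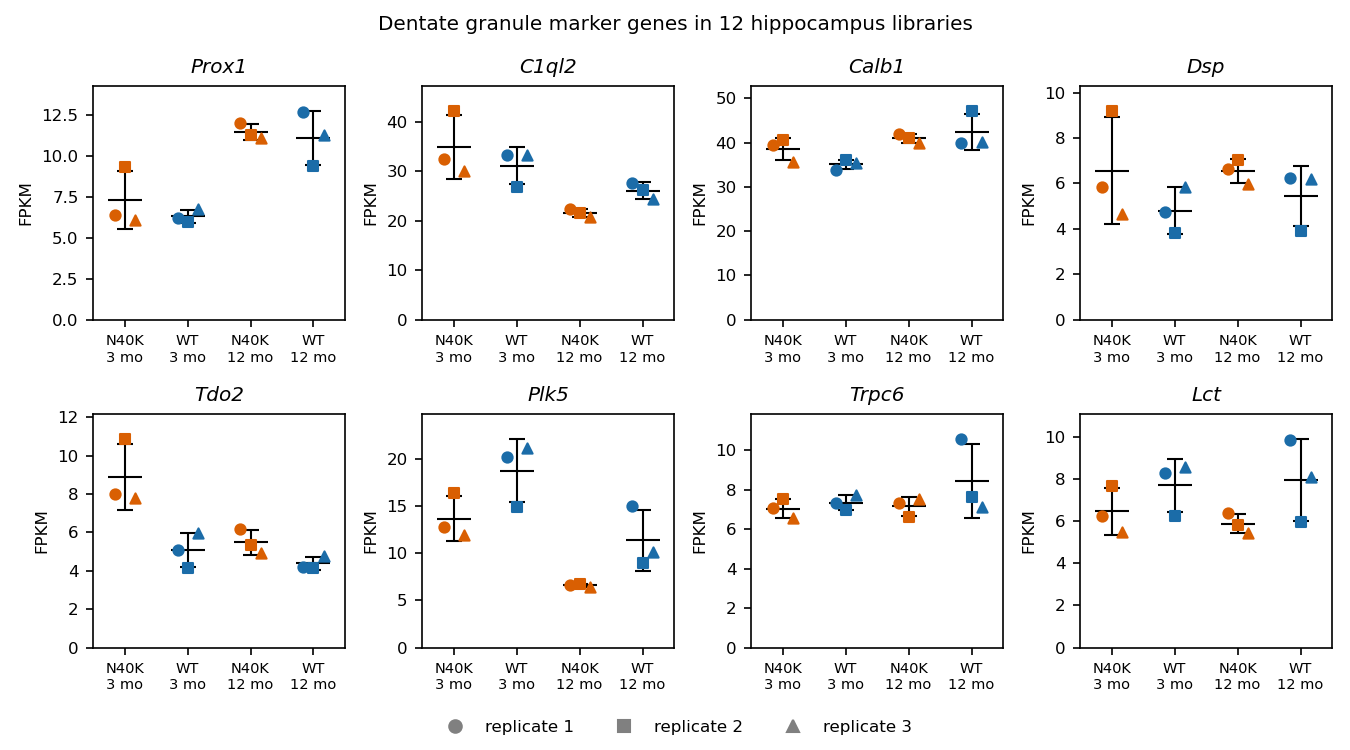
FPKM of the 8 genes on the vertical axes in each library, with N40K in orange, wild type (WT) in blue, symbols for replicates and bars for the group mean ± SD (n = 3). Tdo2 stands higher in all 3 N40K libraries than in all 3 wild-type libraries at each age, Plk5 stands lowest in the 12-month N40K libraries, and Prox1 stands higher at 12 than at 3 months in both genotypes.

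The order of Tdo2 and Prox1 differed between the young groups. The ratio of Tdo2 to Prox1 FPKM was 1.17 to 1.28 in the 3 N40K libraries and 0.699 to 0.883 in the 3 wild-type libraries at 3 months. At 12 months it was 0.445 to 0.515 in N40K and 0.332 to 0.441 in wild type. At each age the ranges of the genotypes did not overlap, and Tdo2 exceeded Prox1 only in the young N40K libraries, 3 of 3. The ratio of Plk5 to Prox1 was 1.75 to 1.99 in N40K and 2.51 to 3.28 in wild type at 3 months, and 0.552 to 0.598 in N40K and 0.900 to 1.19 in wild type at 12 months. These ratios do not depend on the scaling of a library as a whole. They were chosen after the values were seen and are given without a test.

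The comparison of N40K with wild type at 3 months asks what the truncated protein changes in young adults. Tdo2 was the member that differed beyond the spread. It stood at 7.99, 10.9 and 7.82 FPKM in N40K and at 5.10, 4.16 and 5.97 FPKM in wild-type hippocampus. All N40K libraries were above all wild-type libraries, as for 20.4% of all genes tested, while 0 members stood lower without overlap, against 11.5%. The ratio of means was 1.75. Its difference in log2(FPKM + 1), the scale of all log2 differences here, was 0.70 ± 0.13 (SE), with an adjusted p of 0.00647 in limma. Among libraries with Xist reads Tdo2 averaged 7.82 FPKM in 1 N40K library and 5.07 FPKM in 2 wild-type libraries, and among those without them 9.44 FPKM in 2 N40K libraries and 5.10 FPKM in 1 wild-type library. The log2 differences within these strata were 0.56 and 0.76. Without the 3 libraries with Xist reads the fitted difference was 0.76 with an adjusted p of 0.0928.

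The other 7 genes did not pass the test at 3 months, so of the 8 members 1 was called higher and 0 lower, against a background of 11.4% of 13945 genes called, 7.95% higher and 3.49% lower. Plk5 stood at 12.8, 16.4 and 11.9 FPKM in N40K and 20.2, 14.9 and 21.2 FPKM in wild type. Those groups overlapped through replicate 2 of each, and the log2 difference was -0.43 ± 0.17 (SE, limma adjusted p = 0.144). Dsp stood at 5.83, 9.19 and 4.66 FPKM in N40K and 4.76, 3.80 and 5.86 FPKM in wild type. Its difference of 0.35 had a 95% interval of -0.11 to 0.81. Prox1 stood at 6.41, 9.34 and 6.11 FPKM in N40K and 6.17, 5.96 and 6.76 FPKM in wild type. The Prox1 groups overlapped and replicate 2 of N40K stood apart, with a difference of 0.16 (95% interval -0.12 to 0.45) that was -0.0061 without that library.

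The synaptic gene C1ql2 stood at 32.4, 42.2 and 30.2 FPKM in N40K and 33.4, 26.9 and 33.3 FPKM in wild type at 3 months. The calcium buffer gene Calb1 stood at 39.5, 40.6 and 35.7 FPKM in N40K and 33.9, 36.0 and 35.3 FPKM in wild type. Both overlapped between the genotypes, with log2 differences of 0.15 (95% interval -0.10 to 0.40) and 0.13 (-0.012 to 0.28). The channel gene Trpc6 stood at 7.04, 7.499 and 6.55 FPKM in N40K and 7.33, 6.94 and 7.72 FPKM in wild type. Lct stood at 6.22, 7.69 and 5.47 FPKM in N40K and 8.26, 6.26 and 8.57 FPKM in wild type. Their intervals also held 0, at -0.30 to 0.19 for Trpc6 and -0.57 to 0.13 for Lct. The median difference of the 8 genes was 0.142, beside 0.0201 over all genes tested. With and without Xist reads, the 3-month differences were -0.048 and 0.287 for Prox1 and -0.02 and 0.534 for Dsp. They were 0.002 and 0.234 for Calb1, 0.01 and 0.146 for C1ql2 and -0.544 and -0.459 for Plk5. For Trpc6 they were -0.14 and -0.01, and for Lct -0.366 and -0.225. In each of these strata 1 genotype had 1 library.

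Libraries of a group often ranked alike over the 8 genes, and all 8 did so in the young N40K group. Replicate 2 of the young N40K group had the highest value of its group in 8 of 8 genes, and replicate 3 the lowest in 8 of 8, while they were highest and lowest for 32.8% and 37.1% of all genes tested. In the young wild-type group replicate 2 was lowest in 7 of the 8, but highest for Calb1, and replicate 3 highest in 6. In the 12-month N40K group replicate 3 was lowest in 7 of 8, but highest for Trpc6. In the 12-month wild-type group replicate 1 was highest in 6 of 8, and replicate 2 was lowest in 5, among them Prox1, Dsp and Plk5, but highest for Calb1. Of 16 other granule-enriched genes, 13 were highest in replicate 2 and 12 lowest in replicate 3 of the young N40K group, 9 were lowest in replicate 2 of the young wild-type group and 13 in replicate 2 of the 12-month wild-type group. In the 12-month N40K group the lists differed, with 5 of the 16 lowest in replicate 3 and 9 in replicate 2. In replicate 2 of the young N40K group the mean level of CA1 pyramidal markers was 0.12 below and that of interneuron markers 0.33 below their averages over the 12 libraries (log2), each the lowest of the 12. In that library neocortex and subiculum markers stood at -0.22 and pan-neuronal genes at -0.11. Other lists stood above their averages there, with CA2 markers at 0.13, CA3 markers at 0.22 and endothelial and meningeal markers at 0.37. The sum of 10 choroid plexus markers was 182.8, 2068 and 163.7 FPKM in N40K and 234.4, 231.6 and 6902 FPKM in wild type at 3 months. At 12 months, where Plk5 was called, it was 90.55, 330.3 and 3745 FPKM in N40K and 1656, 1340 and 2717 FPKM in wild type. In each young group it was thus high in the library most often highest over the members, replicate 2 of N40K and replicate 3 of wild type. It was also high in the library most often lowest in the 12-month N40K group, and in all 3 wild-type libraries of 12 months. The part of tissue makeup in the differences between genotypes was not tested.

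**Figure D2:**
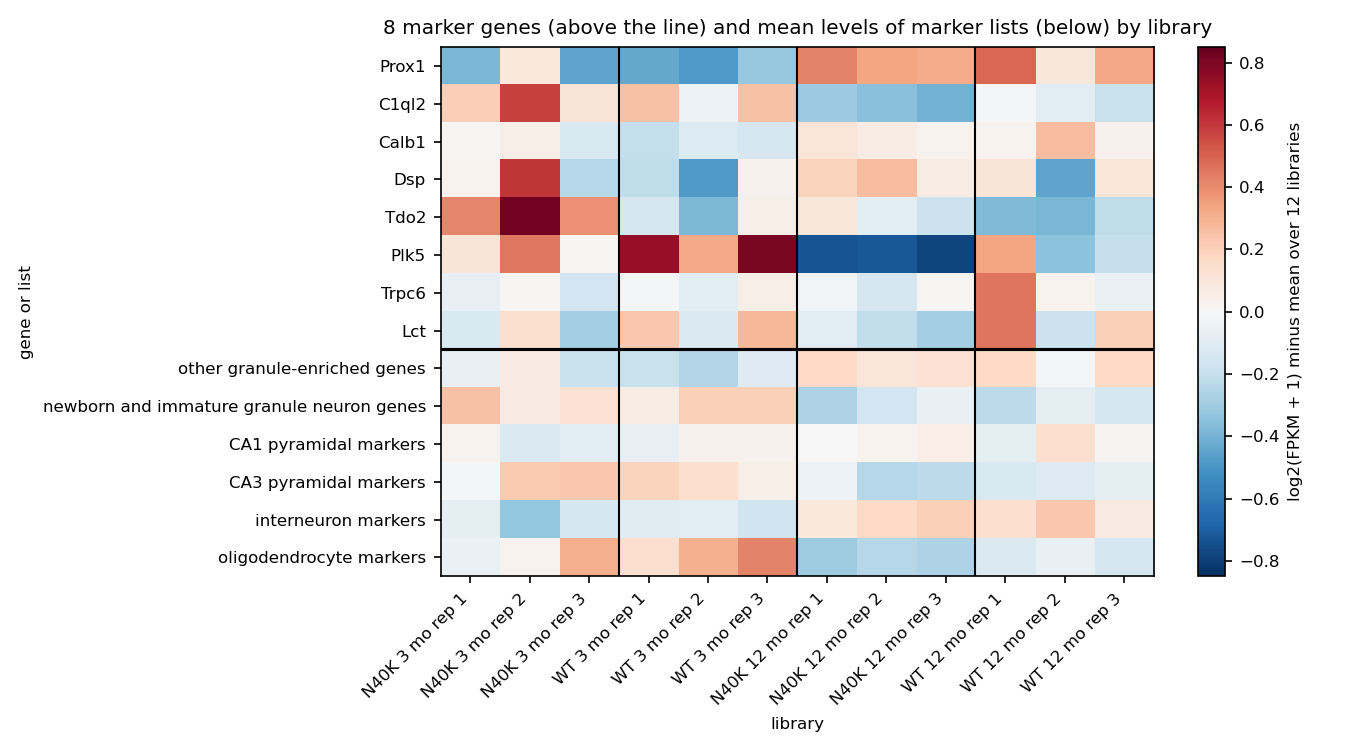
Log2(FPKM + 1) of each gene minus its mean over the 12 libraries (colour scale), and below the line the mean of such values over 6 marker lists, with libraries in columns from N40K at 3 months to wild type (WT) at 12 months. Replicate 2 of the young N40K group is above its group's other libraries in all 8 genes, Prox1 is low at 3 months outside that library and above its average at 12 months, and Plk5 is lowest in the 12-month N40K libraries.

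At 12 months the member that differed beyond the spread was Plk5. It stood at 6.63, 6.73 and 6.43 FPKM in N40K and at 15.03, 8.999 and 10.1 FPKM in wild-type hippocampus. All N40K libraries were below all wild-type libraries, as for 17.5% of all genes tested. The N40K values lay close together (SD 0.15 FPKM in N40K, 3.21 FPKM in wild type, n = 3 each). The ratio of means was 0.58, and the log2 difference was -0.67 ± 0.17 (SE), with an adjusted p of 0.021 in limma. Leaving out replicate 1, 2 or 3 of the 12-month N40K group ended the call, with adjusted p of 0.0614, 0.0576 and 0.0531 and differences of -0.68, -0.69 and -0.66. In all, 0 of the 8 members were called higher and 1 lower, against a background of 18.9% of genes called, 11.2% higher and 7.71% lower.

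Tdo2 stood at 6.19, 5.34 and 4.93 FPKM in N40K and 4.20, 4.14 and 4.80 FPKM in wild type at 12 months. The groups again did not overlap, as for 21.3% of all genes in that direction, but the difference of 0.27 ± 0.13 (SE) did not pass (limma adjusted p = 0.173). C1ql2 stood at 22.4, 21.6 and 20.8 FPKM in N40K and 27.7, 26.2 and 24.4 FPKM in wild type. These groups did not overlap either, as for 17.5% of all genes in that direction, and the difference was -0.26 ± 0.11 (SE, limma adjusted p = 0.127). That value was 0.0345 when the 12-month libraries were fitted alone. Lct stood at 6.36, 5.83 and 5.46 FPKM in N40K and 9.83, 5.94 and 8.09 FPKM in wild type, overlapping through replicate 2 of wild type. Its difference was -0.36 ± 0.16 (limma adjusted p = 0.138), and without that library it was -0.53 with an adjusted p of 0.038.

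The other 4 genes overlapped between the genotypes at 12 months. Prox1 stood at 12.0, 11.3 and 11.1 FPKM in N40K and 12.6, 9.39 and 11.2 FPKM in wild type, a difference of 0.050 (95% interval -0.24 to 0.34). Calb1 stood at 42.0, 40.9 and 39.9 FPKM in N40K and 39.9, 47.1 and 40.2 FPKM in wild type, a difference of -0.044 (-0.19 to 0.10). These intervals bound a change of the identity gene and of calbindin more tightly than that of Dsp. Dsp stood at 6.65, 7.04 and 6.00 FPKM in N40K and 6.23, 3.90 and 6.19 FPKM in wild type, a difference of 0.25 (-0.21 to 0.72). Trpc6 stood at 7.31, 6.62 and 7.54 FPKM in N40K and 10.6, 7.62 and 7.10 FPKM in wild type, a difference of -0.19 (-0.44 to 0.051). The highest wild-type value of Trpc6 came from replicate 1. For Lct replicates 1 and 3 of wild type, at 9.83 and 8.09 FPKM, both stood above all N40K libraries.

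**Figure D3:**
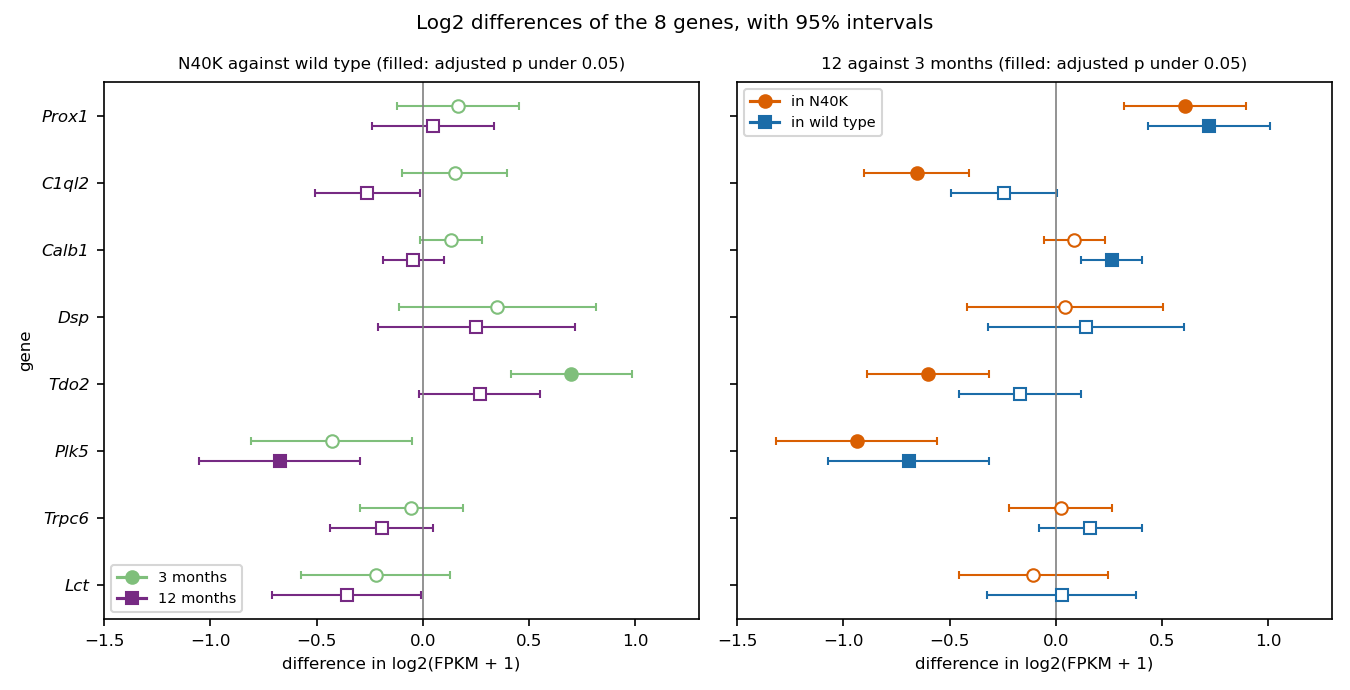
Differences in log2(FPKM + 1) of the 8 genes (horizontal axes) with 95% intervals from limma, for N40K against wild type at each age (left) and for 12 against 3 months in each genotype (right). Filled symbols passed an adjusted p of 0.05, which on the left were Tdo2 at 3 months (0.70) and Plk5 at 12 months (-0.67), and on the right 4 genes in N40K and 3 in wild type.

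Averaged over both ages, with 6 libraries a genotype, Tdo2 was higher in N40K by 0.48 ± 0.09 (SE, limma adjusted p = 0.00308) and Plk5 lower, at -0.55 ± 0.12 (limma adjusted p = 0.00711). Thus 1 member was called in each direction, against a background of 25% of genes called, 15.5% higher and 9.54% lower. Of the background calls 61.9% were higher, and 49.1% with median-ratio scaling or 49.8% with quantile normalization. Lct stood at -0.29 ± 0.11 (limma adjusted p = 0.0841), and Dsp at 0.30 ± 0.15 (limma adjusted p = 0.164). Lct passed, making 3 members called, under quantile normalization (-0.34, adjusted p = 0.0386), without replicate 2 of young wild type (-0.35, adjusted p = 0.0485) and without replicate 2 of 12-month wild type (-0.38, adjusted p = 0.0174). The remaining 4 lay between -0.12 for Trpc6 and 0.11 for Prox1, and the median of the 8 was -0.0053, beside 0.014 over all genes. None of these average values is independent of those at each age.

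Whether the N40K effect differed between the ages was tested directly. Limma called 0 of the 8 members, against 0.0645% of genes called, 0.0359% higher and 0.0287% lower, and 2 members had an unadjusted p under 0.05. These were Tdo2, with an effect smaller at 12 months by 0.43 (95% interval of the difference -0.84 to -0.028, limma adjusted p = 0.319), and C1ql2, at -0.41 (-0.76 to -0.061, limma adjusted p = 0.279). The values of all 8 were negative, from -0.099 for Dsp to -0.43 for Tdo2, with a median of -0.158, beside -0.0121 over all genes. Without replicate 2 of the young N40K group, Prox1 and Dsp turned positive, at 0.057 and 0.14. The call of Tdo2 at 3 months and not at 12, and of Plk5 at 12 months and not at 3, is thus not shown to be a difference between the ages.

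In the comparison of 12 with 3 months, Prox1 and Plk5 were called in both genotypes, Prox1 higher and Plk5 lower. In N40K hippocampus Prox1 stood at 12.0, 11.3 and 11.1 FPKM at 12 months and at 6.41, 9.34 and 6.11 FPKM at 3 months. In wild type it stood at 12.6, 9.39 and 11.2 FPKM at 12 months and at 6.17, 5.96 and 6.76 FPKM at 3 months. The ages did not overlap in either genotype, with ratios of means of 1.57 in N40K and 1.76 in wild type. The log2 differences were 0.61 ± 0.13 in N40K (SE, limma adjusted p = 0.00263) and 0.72 ± 0.13 in wild type (limma adjusted p = 0.00145). They were 0.39 and 0.57 with the trend of each library against transcript length removed, and the calls held. With the mean of the other granule-enriched genes as a covariate, chosen after seeing the data, they were 0.25 in N40K (adjusted p = 0.0463) and 0.18 in wild type (adjusted p = 0.266), which ended the wild-type call. That mean itself differed with age. Its genes Dgkh and Zbtb20 stood at 8.72 and 6.85 times their 3-month means in N40K, and 9.46 and 6.7 times in wild type. This fit therefore cannot separate granule neuron content from age.

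Plk5 moved the other way with age. The 12-month values of 6.63, 6.73 and 6.43 FPKM in N40K lay below the 3-month values of 12.8, 16.4 and 11.9 FPKM without overlap, at a log2 difference of -0.94 ± 0.17 (SE, limma adjusted p = 0.00102). In wild type the 12-month values of 15.03, 8.999 and 10.1 FPKM overlapped the 3-month values of 20.2, 14.9 and 21.2 FPKM only between replicate 1 and replicate 2, at -0.69 ± 0.17 (limma adjusted p = 0.00816). C1ql2 fell in N40K, to 21.6 ± 0.76 FPKM at 12 months, against 34.9 ± 6.40 FPKM at 3 months (SD, n = 3 each), a difference of -0.66 ± 0.11 (SE, limma adjusted p = 6.64e-04). With the trend against GC content removed it was -0.29, with an adjusted p of 0.0447, and the difference of Plk5 in N40K was -0.61, with an adjusted p of 0.0106. In wild type C1ql2 averaged 26.1 ± 1.68 FPKM at 12 months and 31.2 ± 3.70 FPKM at 3 months, and the difference of -0.24 ± 0.11 did not pass (limma adjusted p = 0.104). It passed with Xist as a covariate (-0.39, adjusted p = 0.0323), without replicate 2 of young N40K (-0.24, adjusted p = 0.0329) and without replicate 2 of young wild type (-0.34, adjusted p = 0.0363).

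Tdo2 also fell in N40K, to 5.49 ± 0.64 FPKM at 12 months, against 8.90 ± 1.72 FPKM at 3 months (SD, n = 3 each), a difference of -0.60 ± 0.13 (SE, limma adjusted p = 0.00276). In wild type Tdo2 averaged 4.38 ± 0.36 FPKM at 12 months and 5.08 ± 0.90 FPKM at 3 months, a difference of -0.17 ± 0.13 (limma adjusted p = 0.326). The young N40K libraries enter both this comparison and that of the genotypes at 3 months. Calb1 rose in wild type, to 42.4 ± 4.09 FPKM at 12 months, against 35.1 ± 1.09 FPKM at 3 months, by 0.26 ± 0.066 (SE, limma adjusted p = 0.00809). With Xist as a covariate, whose reads 2 of the 3 young wild-type libraries hold, it was 0.23 with an adjusted p of 0.0569, which ended the call. In N40K its difference was 0.087 ± 0.066 (limma adjusted p = 0.294), and it passed under median-ratio scaling (0.19, adjusted p = 0.0385) and quantile normalization (0.22, adjusted p = 0.0112). Dsp, Trpc6 and Lct were not called with age in either genotype, with differences between -0.11 and 0.16.

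In N40K 1 member was called higher and 3 lower with age, against a background of 15.1% and 36.5% of genes, and in wild type 2 higher and 1 lower, against 12.6% and 29.0%. Without overlap between the ages, 1 member stood higher and 3 lower in N40K, against 19.1% and 43.7% of genes, and 2 higher and 0 lower in wild type, against 15.7% and 34.5%. Calls in either direction covered 51.6% of all genes in N40K and 41.6% in wild type, so the members' shares were near the background. The median over all genes was -0.102 in N40K and -0.0766 in wild type, and -0.0158 and -0.00643 with median-ratio scaling. That scaling split the background calls into 2995 higher and 3020 lower in N40K and 2594 higher and 2420 lower in wild type, where the values without it were 2111 higher and 5089 lower and 1756 higher and 4047 lower. Under it Prox1 was higher by 0.70 in N40K and 0.79 in wild type, and Plk5 stood at -0.85 and -0.62, with the calls of both genes kept.

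Other genes enriched in granule neurons were described from a list of 16, of which all 16 were tested. With N40K 0 of the 16 were called at 3 months, against 11.4% of all genes. At 12 months 2 were higher and 1 lower, and averaged over both ages 3 were higher and 0 lower, which is no more than the 18.9% and 25% of all genes called. The average calls were Dgkh, a diacylglycerol kinase gene, at 0.40 ± 0.083 (SE, limma adjusted p = 0.0051), Zbtb20, a zinc finger gene needed in hippocampal development, at 0.29 ± 0.076 (limma adjusted p = 0.0165) and Akap7, an anchoring protein gene of mossy fibres, at 0.16 ± 0.047 (limma adjusted p = 0.0284). The median of the list was 0.080 averaged over both ages, beside 0.014 over all genes. Il16 was the 12-month call that was lower, at -0.26 ± 0.073 (limma adjusted p = 0.0277).

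With age the list of 16 split. In N40K 3 were higher and 4 lower, against 15.1% and 36.5% of all genes, with a median of -0.009, beside -0.102 over all genes. In wild type 5 were higher and 1 lower, against 12.6% and 29% of all genes, with a median of 0.15, beside -0.0766. Whether these counts differ from those shares was not tested. Dgkh measured 10.3 ± 1.76 FPKM at 12 months and 1.18 ± 0.17 FPKM at 3 months in N40K (SD, n = 3 each), and 7.10 ± 1.14 and 0.751 ± 0.034 FPKM in wild type. The ratios of its means were 8.72 in N40K and 9.46 in wild type, and those of Zbtb20 were 6.85 and 6.70. These ratios are far above those of the 8 members, whose ratios between ages lay between 0.483 and 1.76. A difference in library handling or annotation between the ages was not tested. Ablim3, a gene of an actin-binding protein, was lower in both genotypes, at -0.44 ± 0.078 in N40K (SE, limma adjusted p = 8.25e-04) and -0.29 ± 0.078 in wild type (limma adjusted p = 0.0119).

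**Figure D4:**
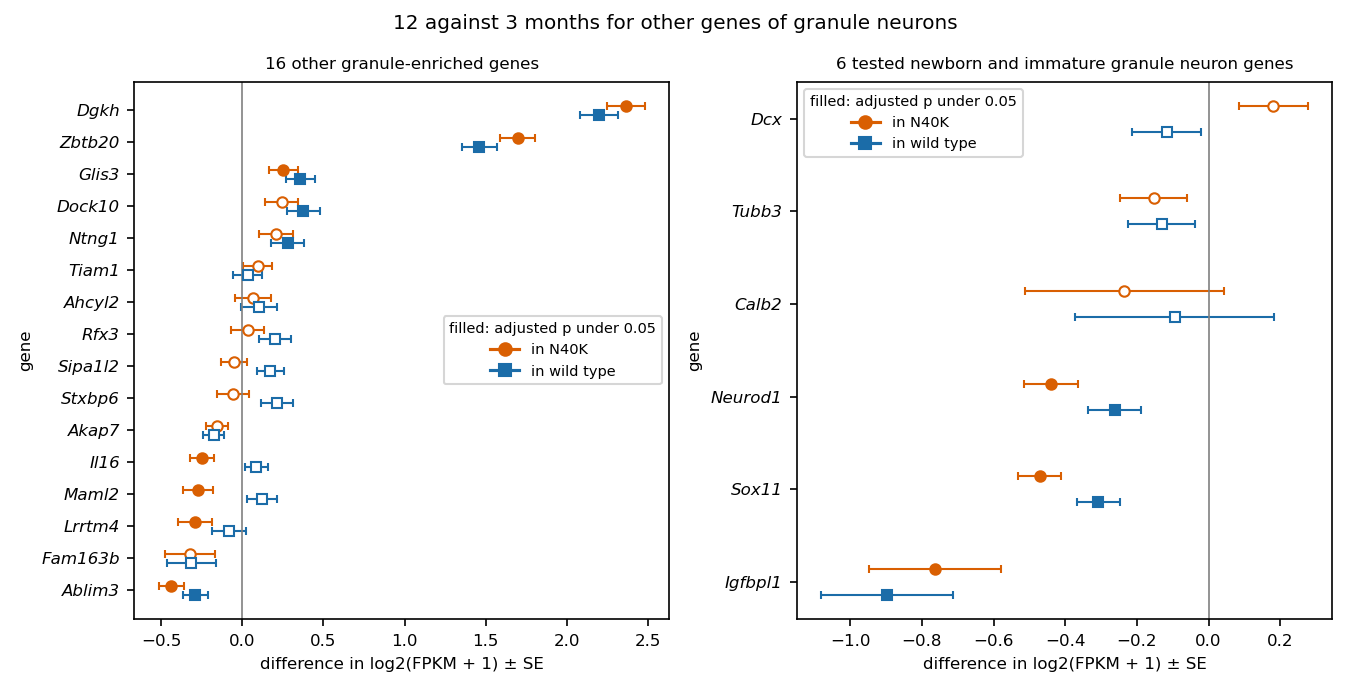
Differences in log2(FPKM + 1) ± SE between 12 and 3 months (horizontal axes) in N40K (orange circles) and wild type (blue squares), for 16 other granule-enriched genes (left) and 6 tested genes of newborn and immature granule neurons (right). Filled symbols passed an adjusted p of 0.05. Dgkh and Zbtb20 lie far to the right in both genotypes, and Sox11, Neurod1 and Igfbpl1 lie to the left in both.

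Genes of newborn and immature granule neurons were taken from a list of 8, of which 6 passed the filter. With age 3 were lower and 0 higher in each genotype, and the called genes were the same in both, Sox11, Neurod1 and Igfbpl1. Over all genes 36.5% were lower in N40K and 29% in wild type, and whether 3 of 6 differs from these shares was not tested. The medians were -0.34 in N40K and -0.20 in wild type, beside -0.102 and -0.0766 over all genes. For Igfbpl1 the ratio of the 12-month to the 3-month mean was 0.266 in N40K and 0.14 in wild type. For Sox11 it was 0.586 and 0.695. Neurod1, which encodes a transcription factor of granule neuron maturation, averaged 5.83 ± 0.60 FPKM at 12 months and 8.26 ± 0.87 FPKM at 3 months in N40K (SD, n = 3 each), and 6.83 ± 0.26 and 8.38 ± 0.25 FPKM in wild type. With N40K at 12 months 1 of the 6 was called higher and 0 lower, against 11.2% and 7.71% of all genes, with a median of -0.08. The ratios of means were 0.853 for Neurod1, 1.02 for Sox11 and 1.9 for Igfbpl1, none of them called. The called gene was Dcx, the microtubule gene doublecortin of migrating young neurons, which was not called with age. Dcx averaged 3.18 ± 0.50 FPKM in N40K and 1.89 ± 0.23 FPKM in wild type at 12 months, a difference of 0.53 ± 0.096 (SE, limma adjusted p = 0.00413). At 3 months it averaged 2.67 ± 0.24 FPKM in N40K and 2.13 ± 0.17 FPKM in wild type (0.23 ± 0.096, limma adjusted p = 0.155).

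Genes that neuronal activity induces in granule cells were taken from a list of 10, all tested. At 3 months 0 were called with N40K, against 11.4% of all genes. At 12 months 1 was lower, against 7.71% of all genes, namely Fosb, an AP-1 factor gene. It averaged 1.58 ± 0.18 FPKM in N40K and 2.49 ± 0.13 FPKM in wild type (SD, n = 3 each), a difference of -0.44 ± 0.12 (SE, limma adjusted p = 0.0224). Npy, whose product is a peptide that granule neurons make under strong activity, had the highest level of the list, at 69.5 ± 7.39 FPKM in N40K and 71.5 ± 2.58 FPKM in wild type at 3 months, a difference of -0.043 ± 0.077 (SE, limma adjusted p = 0.785).

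Markers of the other principal cells were set beside these values. At 3 months 0 of 8 CA1 markers were called higher and 1 lower, and at 12 months 1 higher and 1 lower. Spink8 was lower with N40K at both ages, at -0.53 ± 0.13 at 3 months (SE, limma adjusted p = 0.0249) and -0.52 ± 0.13 at 12 months (limma adjusted p = 0.019). Wfs1, the gene of an endoplasmic reticulum protein, was higher at 12 months (0.58 ± 0.12, limma adjusted p = 0.00789). Of 6 CA3 markers 1 was higher and 1 lower at 3 months, and 0 higher and 1 lower at 12 months. Bok, a BCL2 family gene, was higher at 3 months (0.57 ± 0.11, limma adjusted p = 0.00628), and Prss35 was lower at both ages (-0.29 ± 0.080 at 3 months, limma adjusted p = 0.0396). Of 5 mossy cell markers 1 was higher at each age and 1 lower at 12 months. Csf2rb2 was higher at both ages, at 0.40 ± 0.10 at 3 months (limma adjusted p = 0.0307) and 0.35 ± 0.10 at 12 months (limma adjusted p = 0.0362). Single markers of other hippocampal neurons were thus called in each direction. Over all genes 7.95% were called higher and 3.49% lower at 3 months, and 11.2% and 7.71% at 12 months. Whether the counts of these short lists differ from those shares was not tested. The sum of the 8 CA1 markers was 177.6 to 205.7 FPKM in N40K and 178.5 to 196.4 FPKM in wild type at 3 months, and 194.5 to 197.9 and 180.4 to 214.2 FPKM at 12 months. The sum of the 8 granule markers was 108.4 to 143.7 FPKM in N40K and 105.0 to 124.7 FPKM in wild type at 3 months, and 102.2 to 109.6 and 112.0 to 126.2 FPKM at 12 months. Calb1 and C1ql2 make up most of that sum, and the mean of the centred log2 values, which weights the 8 genes equally, overlapped at 12 months (-0.15 to -0.044 in N40K and -0.13 to 0.19 in wild type). The sum of 8 pan-neuronal genes was 1952 to 1969 FPKM in N40K and 2046 to 2233 FPKM in wild type at 12 months, and that of 7 oligodendrocyte markers 1416 to 1512 and 1582 to 1718 FPKM. Summed FPKM over all entries did not overlap at 12 months either, at 309358 to 318387 in N40K and 319131 to 332941 in wild type. The part of that offset in the granule, pan-neuronal and oligodendrocyte sums was not tested.

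Marker lists of other cells also differed between the ages. With age 4 of 6 CA3 markers were lower in N40K and 3 of 6 in wild type, with 0 higher, and 4 of 7 oligodendrocyte markers were lower in each genotype, with 0 higher. These stand beside 36.5% of all genes lower in N40K and 29% in wild type, and their medians were -0.33 and -0.25 for CA3 and -0.41 and -0.38 for oligodendrocytes. Their part in the age values of C1ql2, Plk5 and Tdo2 was not tested. Interneurons and oligodendrocyte precursors can also hold Prox1 or Calb1 transcripts. Of 8 interneuron markers 4 were higher and 0 lower at 12 months in each genotype, against 15.1% of all genes higher in N40K and 12.6% in wild type, with summed levels of 426.9 to 457.0 FPKM at 12 months and 364.4 to 424.1 FPKM at 3 months in N40K, and 449.9 to 521.4 and 399.5 to 433.9 FPKM in wild type. Of 6 precursor markers 1 was higher and 4 lower with age in N40K, against 15.1% and 36.5% of all genes, with a median of -0.28. In wild type 1 was higher and 1 lower, against 12.6% and 29%, with a median of 0.0049. The summed precursor level was 59.96 to 63.61 FPKM at 12 months and 70.27 to 81.67 FPKM at 3 months in N40K, and 70.23 to 76.95 and 71.73 to 75.67 FPKM in wild type. With N40K 0 interneuron markers were called at either age, and 0 precursor markers at 3 months and 2 at 12 months, both lower. Over all genes 11.4% were called at 3 months and 18.9% at 12 months, where 7.71% were lower. The part of these cells in the Prox1 and Calb1 values was not tested.

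The transcripts whose profile over the 12 libraries was most like each member were found by the root-mean-square difference of centred log2 values among 9395 genes with a mean of at least 5 FPKM. For Prox1 these were Lyst (0.0939) and Adcy1 (0.119), against a median of 0.434 over all candidates. For C1ql2 they were Bhlhe22 (0.0821) and Dcakd (0.0886), against a median of 0.265, and for Calb1 Klhl9 (0.0504) and Srr (0.0567), against 0.201. Dsp was most like Rfx3 (0.179) and Igfbp5 (0.198), and Trpc6 most like Klhl29 (0.0884) and Stxbp6 (0.0944). Tdo2 was most like 4930404N11Rik (0.150) and Hmg20b (0.151), and Lct most like Hlf (0.154) and Slc24a5 (0.156). Plk5 had the most distant neighbours, 1700058G18Rik (0.228) and Kcnmb4 (0.261), and also the widest spread of its own (0.536). Rfx3 and Stxbp6 are in the list of 16 other granule-enriched genes, so 2 of the 16 neighbours were.

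Some limits belong to single members. Prox1 overlaps the antisense gene Prox1os and Dsp overlaps Gm10129 on the other strand in GENCODE M21, and the sources used here do not say whether counting used strand, so reads of each pair cannot be told apart. Neither overlapping gene has an entry of its own among the 23352. The other 6 members overlap no exon of another gene.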

How the data were processed

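RNA of 12 hippocampus libraries was poly-A selected, prepared with TruSeq reagents and read as paired ends, per the labels. The authors deposited FPKM values in 1 table, and each of its 12 columns carries a library name from the labels (0 columns unmapped). CASAVA, STAR, BWA and mm9 are named, without roles or versions, per the submitters' processing notes. The counting tool, its annotation and its strand setting are not given in the sources used here.

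By name, 21664 of 23352 entries (92.8%) were found in GENCODE M21, which lies on another build and served only for lengths, GC content and overlaps. Depth was estimated from the FPKM steps of receptor genes. Because 54.2% to 77.2% of these values were within 0.05 of whole reads, depth is a rough figure and count models were not used.

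The 13945 genes at or above 1 FPKM in 3 or more of the 12 libraries were tested on log2(FPKM + 1) values, computed from the deposited FPKM, with limma 3.58.1 in R 4.3.3. This scale understates changes of low genes. A single model of the 4 groups, with a moderated variance that followed mean level, gave N40K against wild type at each age and averaged, the difference between these, and 12 against 3 months in each genotype. P-values are two-sided and Benjamini-Hochberg adjusted over all genes of a comparison, with a threshold of 0.05. The procedure was tested on simulated data. Deviations of same-numbered libraries correlated over 0.1 in all 3 pairs for age in wild type (0.25, 0.26 and 0.34), in data from different mice, but in no other comparison made. Nothing in the labels says that each library is a separate animal, so p-values measure the spread between libraries, which may be technical.

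Members, lists and alternatives were chosen with earlier results of these data known. All 8 members are named, from other lists at most 3 called genes with the smallest p per comparison (with none called, the most abundant), and for each member the 2 most similar profiles. A further 12 lists of other cell types measured tissue makeup. Alternatives covered pseudocounts, filters, scaling, Xist and Ttr as covariates, a robust variance, a block on replicate number, separate fits per age and omission of each library. Removal of trends against transcript length and GC content, and the mean of other granule-enriched genes as a covariate, were chosen after seeing the data. Tables and plots were made with Python 3.11.15, pandas 2.3.3 and matplotlib 3.10.9.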

Additional observations from a re-analysis of the deposited data

How the results depend on the processing

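The averaged genotype calls of Tdo2 and Plk5 kept their direction and side of the threshold under every alternative run, with log2 differences of 0.37 to 0.56 and -0.70 to -0.45. Tdo2 at 3 months ranged from 0.51 to 0.80, and Plk5 at 12 months from -0.81 to -0.47. With each library left out in turn, the members called at 12 months ran from 0 to 2, and those called with age in wild type from 3 to 4. Without the 3 libraries with Xist reads 0 members were called at 3 months, among 137 of all genes against 1596, and fewer samples were then fitted. That omission left 1565 averaged calls against 3493 and 2730 calls with age in wild type against 5803. Omitting 1 library took all-gene calls at 3 months to as few as 797 (replicate 2 of wild type) and at 12 months to 1356 (replicate 1 of N40K). Fitted alone, the 12-month libraries gave 2 members and 1499 genes, against 1 and 2632. Genes whose N40K effect differed between ages numbered 9, and 0 with Xist as a covariate, with the replicate block or without the Xist libraries, and ran from 0 to 162 with 1 library omitted.

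The mean of the other granule-enriched genes as a covariate, chosen after seeing the data, gave 3 members at 3 months, 3 at 12 months and 5 with age in wild type, with 0 higher and 5 lower there against 2 higher and 1 lower without it. It brought 6 members with age in N40K, against 4, and ended the age calls of Prox1 (0.18, adjusted p = 0.266) and Calb1 (0.28, adjusted p = 0.105) in wild type. This covariate itself differed with age, at -0.0088 to 0.17 in the 12-month and -0.25 to 0.069 in the 3-month libraries. Fits with it therefore cannot separate granule neuron content from age. With this covariate all-gene calls at 3 months numbered 1062, those of the age difference in effect 19 and those with age in wild type 3355. Values of the opposite sign under it were Prox1 at -0.060 and Dsp at -0.033 at 3 months, Prox1 at -0.025 averaged, Prox1 at 0.071, Dsp at 0.22 and Lct at 0.087 for the difference in effect, Dsp at -0.78, Trpc6 at -0.085 and Lct at -0.62 with age in wild type, and Dsp at -0.57 and Trpc6 at -0.14 with age in N40K. Of these, Dsp (adjusted p = 0.00439) and Lct (adjusted p = 0.0121) in wild type and Dsp in N40K (adjusted p = 0.00296) passed the test in that direction.

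Other changes of sign were in values not called without the alternative. At 12 months they were Prox1 at -0.018 with the length trend removed and Calb1 at 0.0065 under quantile normalization. With age in wild type Dsp was at -0.055 with Xist as a covariate and -0.080 with the length trend removed, and Lct at -0.12 with Xist, -0.010 with Ttr, -0.072 without the Xist libraries and -0.019 with the length trend removed. With age in N40K Dsp was at -0.063 with Xist, -0.14 without the Xist libraries and -0.27 with the length trend removed, Trpc6 at -0.0013 with Xist and -0.020 without the Xist libraries, and Lct at 0.029 with the GC trend removed. Leaving out 1 library gave ranges across 0 for Prox1 at 3 months (-0.0061 to 0.26) and 12 months (-0.054 to 0.14), Calb1 at 12 months (-0.085 to 0.032), and, for the difference in effect, Prox1 (-0.22 to 0.057), Dsp (-0.28 to 0.14), Trpc6 (-0.24 to 0.017) and Lct (-0.31 to 0.013). With age such ranges were those of Lct in wild type (-0.12 to 0.20) and, in N40K, Dsp (-0.14 to 0.28), Trpc6 (-0.020 to 0.071) and Lct (-0.20 to 0.0081). The causes were not tested.

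Correlations between same-numbered libraries of different groups ran from -0.46 to 0.72, with 7 of 18 over 0.1, so the numbers do not pair libraries over the 4 groups. In 2 pairs of groups all 3 were over 0.1, namely 12-month and young wild type (0.25, 0.26 and 0.34) and 12-month N40K and young wild type (0.44, 0.25 and 0.72). With the replicate block the members called numbered 1 at 3 months, 1 at 12 months, 2 averaged, 3 with age in wild type and 4 with age in N40K, as without it.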
